A study of Homo sapiens with 12 samples.

Results

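The cytokine gene IL32 and the genes of the interleukin 1 (IL1) family were followed in 2 hepatocellular carcinoma cell lines that had been treated with DAAD2. The set was made of all probe sets that carried only the symbol IL32, IL1A, IL1B, IL1RN, IL1R1, IL1RAP, IL18 or IL33, which gave 16 probe sets of 8 genes among the 54613 probe sets tested and the 19775 genes that the array named. The genes had been chosen by their measured DAAD2 differences, with IL32 singled out for its value in Hep3B. The IL32 difference in Hep3B is therefore given as a description with no test, with no test of anything built on it. The p-values of the other members for DAAD2 against control, and for the difference of these differences between the lines, are no independent evidence that these genes differ. The control arrays are an arm of the DAAD2 differences, so p-values between the control groups are not wholly independent of that choice.

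Each of 4 groups had 3 arrays (12 in all), Affymetrix U133 Plus 2.0 chips that measure human transcripts. Hep3B cells had received 2 μM DAAD2 for 72 h, with Hep3B cells in 0.1% DMSO for 72 h as their control, and SNU449 cells had received 20 μM DAAD2 for 72 h, with SNU449 cells in 0.1% DMSO for 72 h as theirs. DAAD2 is a derivative of dehydroabietylamine, a plant diterpene amine, that carries N-acetyl-L-cysteine. Hep3B was labelled as sensitive and SNU449 as resistant to it, and since each line had a dose of its own, line and dose cannot be told apart. Each line is a single established line, and no source says whether replicate arrays stand for separate cultures, so p-values rest on the spread of these arrays alone, which may be technical. With 3 arrays against 3, an exact two-sided permutation test of a single gene cannot give a p below 0.1, and all adjusted p-values below come from limma fitted across all probe sets with Benjamini-Hochberg adjustment. A call is an adjusted p under 0.05.

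IL1α and IL1β, the products of IL1A and IL1B, are cytokines that bind the receptor IL1R1 together with its partner chain IL1RAP, and the signal passes through MYD88 and the IRAK kinases to NF-κB. The product of IL1RN occupies the same receptor without starting a signal. IL1β and IL18 are made as precursors that caspase-1 cuts in inflammasomes, IL33 is a nuclear cytokine released from damaged cells, and IL32 is an inflammatory cytokine of a different structure that is known to respond to NF-κB. In liver, IL1β is known to drive the acute phase response of hepatocytes.

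The identity of the lines was checked first. ALB, the plasma albumin gene of hepatocytes, averaged 14.471 ± 0.028 in DAAD2 and 14.53 ± 0.028 in control Hep3B, and 3.273 ± 0.109 in DAAD2 and 3.183 ± 0.179 in control SNU449 (log2, SD, n = 3). The other hepatocyte markers had log2 differences, DAAD2 minus control, of -0.45 for APOA1, -0.43 for AFP, -0.36 for SERPINA1, -0.32 for TTR and 0.01 for TF in Hep3B, and with ALB at -0.06 the list median was -0.3384. None of the 6 was called by limma. At an unadjusted p under 0.05, 4 were lower, beside 8191 of 54613 probe sets in either direction over the whole array. The part of these marker differences in the Hep3B differences below was not tested. All 6 hepatocyte markers lay above the array median on every Hep3B array, with means of 8.53 to 14.53 in control Hep3B. On every control SNU449 array 4 did (APOA1, SERPINA1, TF and TTR), and 5 on every DAAD2 SNU449 array, where AFP was added. Their means were 3.18 to 5.17 in control SNU449. In SNU449 limma called 0 of the 6, with a list median of 0.1944. VIM, a mesenchymal filament gene, averaged 10.775 ± 0.224 in DAAD2 and 10.241 ± 0.397 in control Hep3B, and 13.695 ± 0.167 in DAAD2 and 13.941 ± 0.077 in control SNU449. Of the 6 mesenchymal markers, 4 lay above the array median on every Hep3B array and 6 on every SNU449 array, and FN1 was brighter in Hep3B (11.416 in DAAD2 and 11.563 in control Hep3B, 10.708 in DAAD2 and 10.75 in control SNU449). Leukocytes are the best known source of several members. Of 10 measured leukocyte markers, 4 lay above the array median on every array of both Hep3B groups (CD14, CD3E, ITGAM and LYZ) and 2 on every array of both SNU449 groups (CD3E and ITGAM). LYZ, the lysozyme gene, was the brightest, at 11.545 in DAAD2 and 12.14 in control Hep3B. PTPRC, the pan-leukocyte marker, averaged 2.989 in DAAD2 and 3.232 in control Hep3B and 3.112 in DAAD2 and 3.21 in control SNU449, all below the lowest array median of 3.71, and the mean of the 10 markers ran from 4.49 to 4.68 on DAAD2 and from 4.59 to 4.68 on control Hep3B arrays, and from 3.53 to 3.64 on DAAD2 and from 3.53 to 3.61 on control SNU449 arrays. One array stood apart by the GAPDH 3′ minus 5′ signal, a measure of RNA quality. It was 1.99 on SNU449 DAAD2 replicate 2 and 0.34 to 0.97 on the other SNU449 arrays (0.483 to 1.053 on DAAD2 and 0.453 to 1.514 on control Hep3B arrays). The part of this array in the SNU449 results was not tested beyond the values without it given beside them. By the ACTB 3′ minus 5′ signal another array was the highest, Hep3B DAAD2 replicate 3 at 3.27, with SNU449 DAAD2 replicate 2 at 3.04. The part of Hep3B DAAD2 replicate 3 in the Hep3B results was not tested beyond leaving out each array in turn.

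The promoters of IL32 and IL1B are shown because these are the members on which the results turn, and because both genes are known to answer to inflammatory transcription factors. The windows hold 250 bases before and 50 bases after the annotated start (RefSeq, GRCh38.p14). That of IL32 is chr16:3065153-3065452 on the plus strand and that of IL1B is chr2:112836730-112837029 on the minus strand, each written 5′ to 3′ with motif matches in capitals.
IL32: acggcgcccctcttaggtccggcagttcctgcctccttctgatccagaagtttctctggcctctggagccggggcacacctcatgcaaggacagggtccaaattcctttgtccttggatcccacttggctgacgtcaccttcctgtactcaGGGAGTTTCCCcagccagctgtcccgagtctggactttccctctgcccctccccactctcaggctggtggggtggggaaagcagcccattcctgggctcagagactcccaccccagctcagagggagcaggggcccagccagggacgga
IL1B: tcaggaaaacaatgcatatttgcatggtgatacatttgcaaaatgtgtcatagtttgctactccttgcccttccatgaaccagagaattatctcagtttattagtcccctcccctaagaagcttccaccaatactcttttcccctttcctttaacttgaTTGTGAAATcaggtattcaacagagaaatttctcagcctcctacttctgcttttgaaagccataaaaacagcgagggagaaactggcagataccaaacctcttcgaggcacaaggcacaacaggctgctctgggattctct
On both strands 4 motifs were searched, namely the NF-κB motif, the AP-1 motif TGANTCA, the C/EBP motif TTNNGNAAT and the TATA box TATAAA. In the IL32 window the capitals mark overlapping matches of the NF-κB motif, at positions -99 to -90 from the start on the plus strand and -98 to -89 on the minus strand. In the IL1B window they mark 1 match of the C/EBP motif at -91 to -83. Over 35116 RefSeq promoters of the same length, 11.3% held a match of the NF-κB motif, 7.71% of AP-1, 11.0% of C/EBP and 11.5% of the TATA box. A second annotated IL32 start, with the window chr16:3065534-3065833, held no match of the 4 motifs. Promoter windows were found for 7 of the 8 genes. The matches describe these letters and were not tested as binding sites.

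The members lie on different chromosomes (GRCh38.p14). IL1R1 (102070390 to 102179874), IL1A (112773925 to 112784493), IL1B (112829751 to 112836779) and IL1RN (113099360 to 113134014) are on chromosome 2, within 11063.6 kb. IL1RAP is on chromosome 3 (190514085 to 190659750), IL33 on chromosome 9 (6215149 to 6257983), IL18 on chromosome 11 (112143260 to 112164094) and IL32 on chromosome 16 (3065403 to 3069530).

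**Figure D1:**
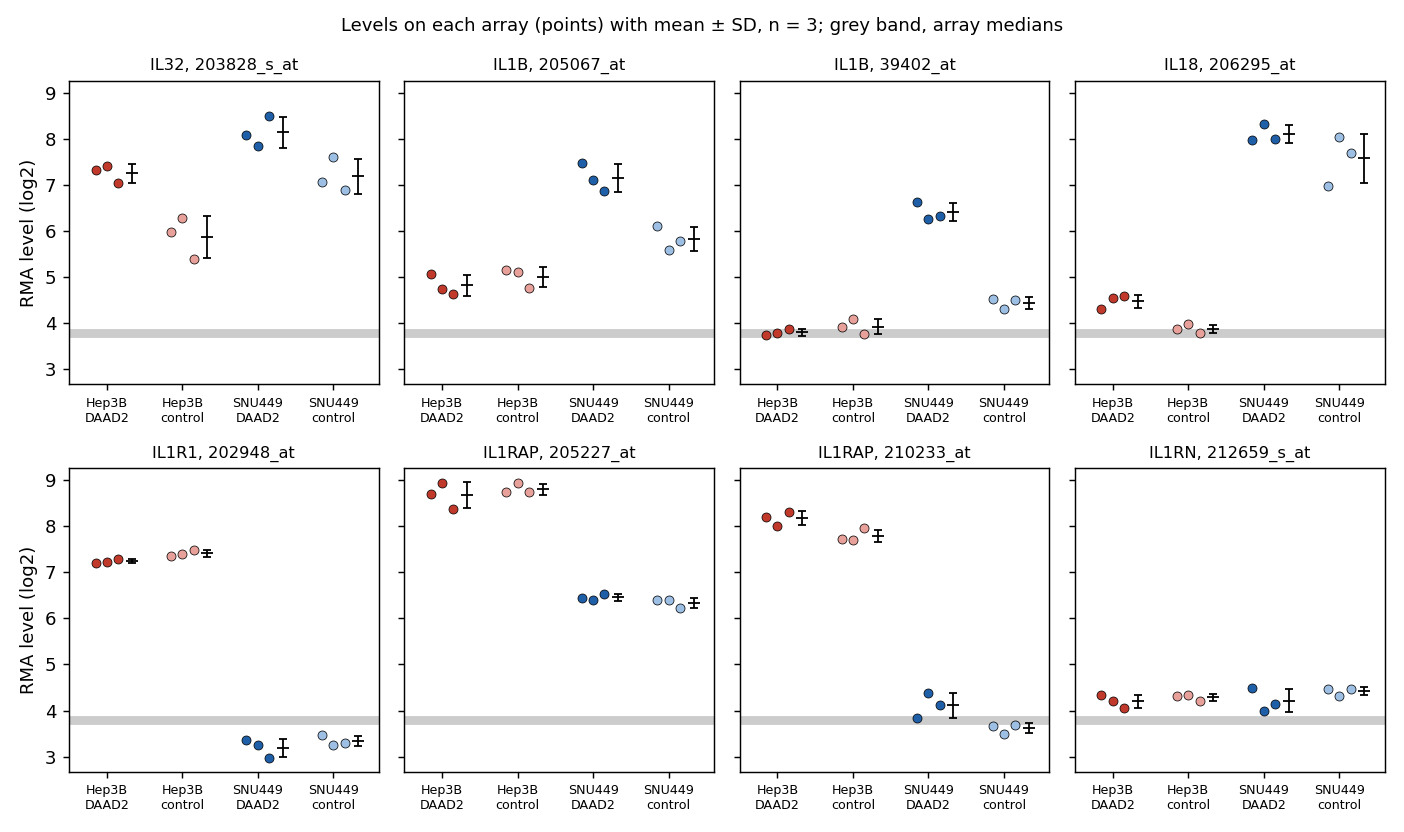
RMA levels (log2) of the 8 member probe sets above the array medians in at least 1 group, with a point for each array, the mean ± SD beside it (n = 3) and the range of array medians as a grey band. The DAAD2 arrays of SNU449 lie above the control arrays for IL32 and both IL1B and both IL1RAP probe sets (205227_at by a margin too small to see), and those of Hep3B for IL32, IL18 and IL1RAP 210233_at. For IL1R1 202948_at the Hep3B DAAD2 arrays lie just below the controls.

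For IL32, every DAAD2 array read above every control array of its line, in both lines. In Hep3B this is the value for which the gene had been chosen. On the single IL32 probe set (203828_s_at), the Hep3B DAAD2 arrays read 7.32, 7.41 and 7.03, against 5.97, 6.28 and 5.38 on the Hep3B control arrays (log2). Control replicate 3 was the lowest array and DAAD2 replicate 2 the highest. The means were 7.253 ± 0.203 with DAAD2 and 5.875 ± 0.456 in the control (SD, n = 3), a log2 difference of 1.38 (SE 0.214) or 2.60-fold, which ranked 13 from the top among 54613 probe sets. Leaving out each array in turn kept this difference between 1.13, without control replicate 3, and 1.58.

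In SNU449 the DAAD2 arrays read 8.07, 7.85 and 8.49 for IL32, against 7.07, 7.61 and 6.88 on the control arrays. The lowest DAAD2 array was only slightly above the highest control array. The means were 8.135 ± 0.327 with DAAD2 and 7.187 ± 0.378 in the control, with a log2 difference of 0.95 (95% CI 0.453 to 1.443, 1.93-fold). This did not pass the test (adjusted p = 0.0844), nor did it with the replicate number as a block (0.189), with no moderation (0.454) or without any 1 array (0.77 to 1.16, adjusted p = 0.0575 to 0.300). It passed with all 12 arrays in 1 fit (adjusted p = 0.0474), with a trended robust prior (0.038) and with the GAPDH 3′ minus 5′ signal as a covariate (0.0366). Without SNU449 DAAD2 replicate 2 the difference was 1.09 (adjusted p = 0.0575). Hep3B had the larger difference by 0.43 (SE 0.337), which is given with no test.

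Hep3B began from the lower IL32 level. The log2 difference, control Hep3B minus control SNU449, was -1.31 (SE 0.249), also with no test, since the control Hep3B arrays are part of the value for which the gene was chosen. From high to low, the group means ran SNU449 DAAD2, Hep3B DAAD2, SNU449 control and Hep3B control. The arrays of the middle pair overlapped (7.253 ± 0.203 in Hep3B DAAD2 and 7.187 ± 0.378 in SNU449 control), while the other neighbours in the order did not. This order is a description with no test, since it holds the Hep3B values for which the gene was chosen.

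IL1B rose with DAAD2 in SNU449 on both of its probe sets, and neither was called in Hep3B. With 39402_at, the SNU449 DAAD2 arrays read 6.63, 6.26 and 6.33, against 4.53, 4.30 and 4.50 on the control arrays. The lowest DAAD2 array was well above the highest control array. The means were 6.405 ± 0.194 with DAAD2 and 4.442 ± 0.127 in the control, so that IL1B rose by 1.96 on the log2 scale (SE 0.133, 3.90-fold, adjusted p = 0.000772), rank 12 of 54613. It stayed called without any 1 of the 6 arrays (1.85 to 2.04) and was 2.04 without SNU449 DAAD2 replicate 2 (adjusted p = 0.00376).

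The other IL1B probe set, 205067_at, read 7.47, 7.10 and 6.87 on the SNU449 DAAD2 arrays, against 6.10, 5.58 and 5.79 on the control arrays. Here too the groups were apart, with means of 7.145 ± 0.302 and 5.823 ± 0.266 and a log2 difference of 1.32 (SE 0.185, 2.50-fold, adjusted p = 0.0158). This call was less firm. It was lost without control replicate 2 (1.20, adjusted p = 0.0837), without control replicate 3 (1.30, adjusted p = 0.0905) and without DAAD2 replicate 1 (1.16, adjusted p = 0.0667), and it held without DAAD2 replicate 2 (1.34, adjusted p = 0.0289).

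In Hep3B the values were low and overlapped. The probe set 205067_at read 5.07, 4.74 and 4.63 with DAAD2, against 5.15, 5.11 and 4.76 in the control, a log2 difference of -0.19 (95% CI -0.534 to 0.151, adjusted p = 0.597). 39402_at read 3.74, 3.79 and 3.88 with DAAD2, against 3.92, 4.09 and 3.76 in the control, a difference of -0.12 (adjusted p = 0.664). These levels were close to the array medians of 3.71 to 3.85, so a small change in Hep3B would be hard to see with 39402_at. The interaction rests on the differences with which the genes had been chosen. The DAAD2 difference in Hep3B minus that in SNU449 was -1.51 for 205067_at (SE 0.257, adjusted p = 0.0115) and -2.08 for 39402_at (SE 0.174, adjusted p = 0.000114), and each stayed called in 12 of 12 fits that left out 1 array. IL1B was also lower in control Hep3B than in control SNU449, with a log2 difference of -0.82 for 205067_at (adjusted p = 0.00421) and of -0.52 for 39402_at (adjusted p = 0.00918). These control arrays are an arm of the differences used for the choice, so these p-values are not wholly independent of it.

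Among the SNU449 DAAD2 arrays, replicate 1 was the highest for both IL1B probe sets and replicate 3 for IL32.

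IL18, whose product is cut by caspase-1 like IL1β, showed mainly a difference between the lines. In Hep3B it read 4.31, 4.54 and 4.58 with DAAD2, against 3.88, 3.97 and 3.78 in the control. The groups did not overlap, both near the bottom of the measurable range, and the log2 difference of 0.60 (SE 0.107, 1.51-fold) did not pass the test (adjusted p = 0.0868). In SNU449 it read 7.97, 8.32 and 7.99 with DAAD2, against 6.98, 8.03 and 7.70 in the control, with overlap and a difference of 0.52 (adjusted p = 0.46), which was 0.23 without control replicate 1 and 0.41 without DAAD2 replicate 2. The DAAD2 differences of the lines differed by 0.08 (adjusted p = 0.935). Control Hep3B was lower than control SNU449 (log2 difference -3.70, SE 0.231, adjusted p = 3.12e-06), with no fold given because its arrays lay next to the medians.

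**Figure D2:**
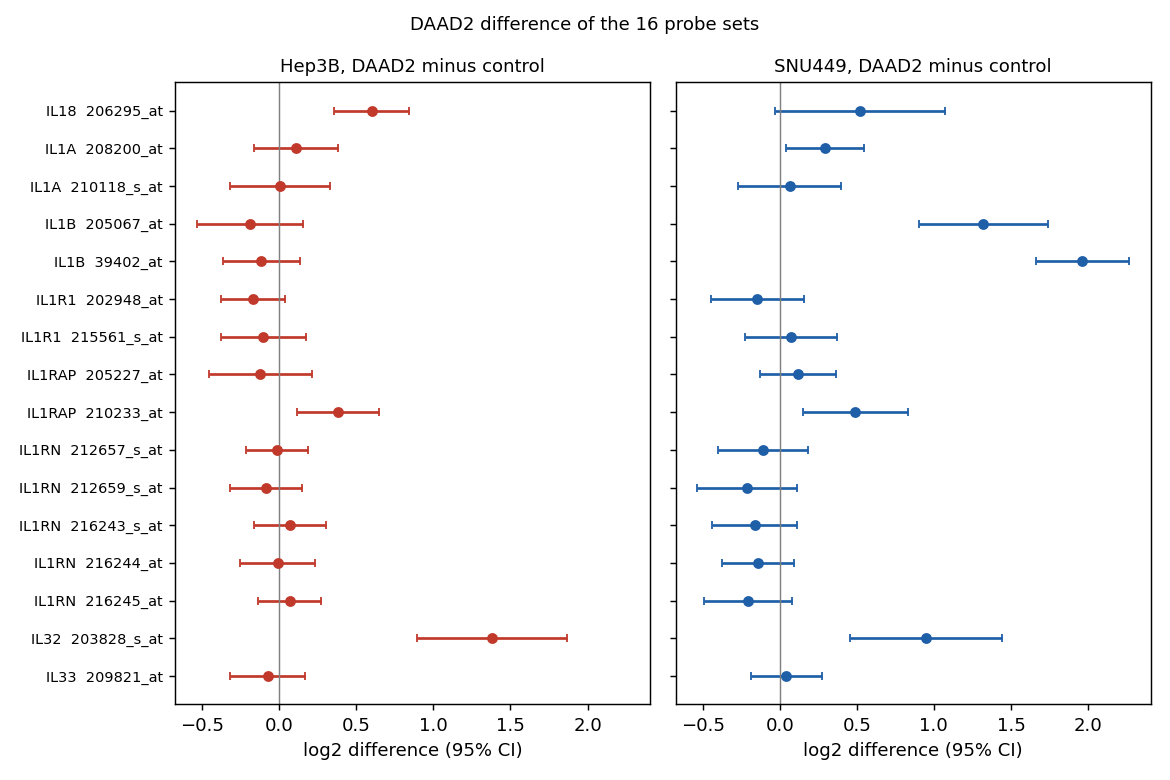
Log2 difference, DAAD2 minus control, of each of the 16 member probe sets with its 95% confidence interval, Hep3B on the left and SNU449 on the right. IL32 lies at 1.38 in Hep3B and 0.95 in SNU449, and both IL1B probe sets lie above 1 in SNU449 and below 0 in Hep3B. The IL32 interval in Hep3B shows the spread of its arrays and is no test, since the gene was chosen for that value.

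Unlike IL1B and IL18, the receptor chains IL1R1 and IL1RAP were higher in control Hep3B than in control SNU449, while IL1A, IL33 and IL1RN were not called in that comparison. IL1R1, the signalling receptor of IL1α and IL1β, read 7.20, 7.22 and 7.28 in DAAD2 Hep3B, against 7.35, 7.39 and 7.49 in control Hep3B with 202948_at. Every DAAD2 array was just below every control array, with a log2 difference of -0.17 that did not pass the test (adjusted p = 0.419). In SNU449 the same probe set read 3.36, 3.25 and 2.97 with DAAD2, against 3.47, 3.26 and 3.29 in the control, all under the array medians. IL1R1 was thus higher in control Hep3B than in control SNU449 (log2 difference 4.07, SE 0.102, adjusted p = 1.19e-08), and because the SNU449 level is under the medians this size is no measured fold. The second IL1R1 probe set, 215561_s_at, was below the array medians in all 4 groups.

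IL1RAP, the accessory chain that IL1R1 and the IL33 receptor share, was measured by 2 probe sets. With 205227_at, Hep3B read 8.70, 8.94 and 8.38 with DAAD2, against 8.73, 8.93 and 8.73 in the control (difference -0.12, adjusted p = 0.737). With 210233_at, Hep3B read 8.19, 8.01 and 8.31 with DAAD2, against 7.73, 7.69 and 7.95 in the control (difference 0.38, adjusted p = 0.189). The DAAD2 and control arrays overlapped on the first probe set and not on the second. In SNU449, 205227_at read 6.44, 6.39 and 6.52 with DAAD2, against 6.39, 6.39 and 6.22 in the control, and 210233_at read 3.83, 4.38 and 4.12 with DAAD2, against 3.67, 3.50 and 3.69 in the control (difference 0.49, adjusted p = 0.199). Without SNU449 DAAD2 replicate 2 these differences were 0.15 with 205227_at and 0.35 with 210233_at. None of these passed the test. Between the control groups both probe sets were higher in Hep3B than in SNU449, by 2.46 on the log2 scale with 205227_at (5.51-fold, adjusted p = 2.79e-07) and by 4.17 with 210233_at (adjusted p = 1.6e-08), where the control SNU449 arrays lay under the medians and no fold is given.

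IL1RN, the receptor antagonist, had 5 probe sets, of which 212659_s_at was the only one above the array medians. It read 4.33, 4.21 and 4.06 in DAAD2 Hep3B, against 4.31, 4.34 and 4.20 in control Hep3B, and 4.49, 4.00 and 4.15 in DAAD2 SNU449, against 4.47, 4.32 and 4.47 in control SNU449. Groups overlapped in both lines. The log2 differences were -0.08 in Hep3B and -0.21 in SNU449 (-0.10 without DAAD2 replicate 2), and neither was called.

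Both IL1A probe sets, the IL33 probe set, IL1R1 215561_s_at and the other 4 IL1RN probe sets had group means of 2.705 to 3.627, all below the lowest array median. Their DAAD2 differences ran from -0.10 to 0.11 in Hep3B and from -0.21 to 0.29 in SNU449, with the smallest adjusted p at 0.719 in Hep3B and 0.334 in SNU449. The largest was that of IL1A 208200_at in SNU449 (95% CI 0.037 to 0.55), where every DAAD2 array lay above every control array. For IL1RN 216244_at (-0.14) and 216245_at (-0.21) in SNU449, every DAAD2 array lay below every control array. At such levels RMA compresses differences. No change of IL1A or IL33 transcripts passed the test here, which is no sign that changes are absent.

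**Figure D3:**
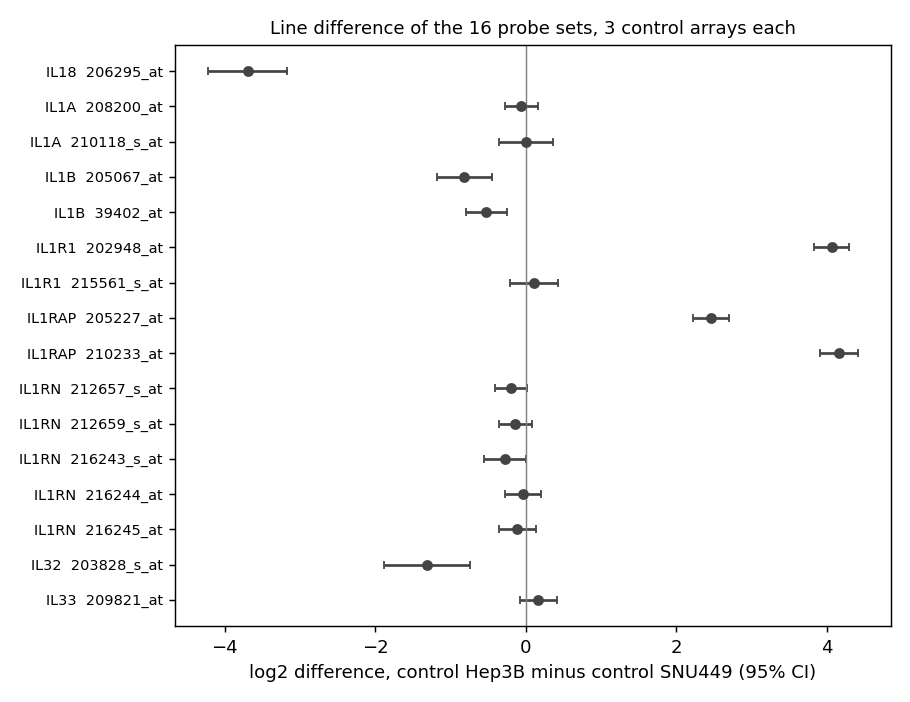
Log2 difference of the 16 member probe sets between untreated lines, control Hep3B minus control SNU449, with 95% confidence intervals (3 arrays each). IL1R1 202948_at and both IL1RAP probe sets lie to the right of 0, and IL18, IL32 and both IL1B probe sets to the left. The IL32 interval is no test, since the control Hep3B arrays are part of the value for which the gene was chosen.

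Counted over the 16 probe sets, DAAD2 against control gave 0 calls in Hep3B, where 0.0% of all probe sets were called in either direction (8191 had an unadjusted p under 0.05, among them 2 of the 15 member probe sets other than IL32). In SNU449, 2 were called higher, where 1.04% of all probe sets were, and 0 lower, where 0.417% were. Nothing is read from these shares, since the members had been chosen with these differences in view. All 3 Hep3B DAAD2 arrays lay above all 3 controls for 3 of the 16 probe sets, beside 11.0% of all probe sets, and in SNU449 for 6 of 16, beside 8.34%. The DAAD2 arrays lay below all controls for 1 of 16 in Hep3B, beside 5457 of 54613, and for 2 of 16 in SNU449, beside 4239. The difference of the DAAD2 differences was called lower in Hep3B for 2 probe sets, both IL1B, beside 0.797% of all. Between the untreated lines, 3 member probe sets were called higher in Hep3B, beside 14.5% of all probe sets. IL18 and both IL1B probe sets were called lower, beside 14.8%. IL32 is left out of the lower calls, since its difference between the controls is given with no test.

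Other genes of the pathway were counted from lists of known function, each gene by its brightest probe set, beside a median difference of -0.0073 in Hep3B and 0.0034 in SNU449 over all 19775 genes. Counts at an unadjusted p under 0.05 stand beside 8191 probe sets in Hep3B and 6445 in SNU449, of 54613, in either direction. Among the 6 other IL1 family ligands limma called 0 in either line, with 0 at an unadjusted p under 0.05 and list medians of -0.0533 in Hep3B and -0.0376 in SNU449. IL37, an anti-inflammatory member, had a log2 difference of -0.15 in Hep3B (adjusted p = 0.557), and IL36G one of -0.11 in Hep3B and -0.24 in SNU449 (adjusted p = 0.652 and 0.565), while IL36B had one of 0.12 in SNU449 (adjusted p = 0.806). Among 9 other receptors and binding proteins limma called 0 in either line, with 2 lower in Hep3B and 1 higher in SNU449 at an unadjusted p under 0.05 (medians -0.0633 in Hep3B and 0.0943 in SNU449). SIGIRR, an inhibitory receptor, differed by -0.34 in Hep3B (adjusted p = 0.202) and by 0.50 in SNU449 (adjusted p = 0.158), where without DAAD2 replicate 2 it was called (0.65, adjusted p = 0.0399). IL1RAPL2 differed by -0.26 in Hep3B (adjusted p = 0.313), and IL1RL1, the IL33 receptor gene, by -0.25 in SNU449 (adjusted p = 0.586).

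Of 13 genes of inflammasomes and cytokine processing limma called 0 in either line, with 0 in Hep3B and 1 higher in SNU449 at an unadjusted p under 0.05 (medians -0.1357 in Hep3B and -0.0066 in SNU449). CASP4, an inflammatory caspase, had the largest difference in SNU449 (0.54, adjusted p = 0.152, and 0.58 without DAAD2 replicate 2), followed by PRTN3 (0.25, adjusted p = 0.58), and in Hep3B these were MEFV (-0.41, adjusted p = 0.483) and the adaptor gene PYCARD (-0.33, adjusted p = 0.367). Of 12 measured genes of IL1 receptor signalling, limma called 0 in Hep3B, where 4 were higher at an unadjusted p under 0.05, and 1 higher in SNU449, with list medians of 0.1518 in Hep3B and -0.0942 in SNU449. That gene was IRAK2, a kinase of the receptor complex, which averaged 7.701 with DAAD2 and 6.978 in the control in SNU449 (log2 difference 0.72, SE 0.1391, adjusted p = 0.0458) and whose call was lost without any 1 of the 6 arrays, DAAD2 replicate 2 included (0.71, adjusted p = 0.0722). In Hep3B the largest differences of this list were those of MAP3K7, a kinase downstream of the receptor (0.73, adjusted p = 0.173), and IRAK1 (0.54, adjusted p = 0.115). MYD88, the receptors' adaptor, named after its value had been seen, differed by 0.15 in Hep3B and by -0.03 in SNU449 and was called in neither.

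The genes known to be induced by IL1 in epithelial or liver cells were the list with most calls. Of its 14 measured genes, 6 rose and 0 fell in SNU449, with a list median of 0.7093, against 360 higher and 111 lower of 19775 genes over the whole array. At an unadjusted p under 0.05, 12 were higher and 0 lower. The list was chosen with earlier results of these data known, so these counts are a description. Whether IL1 had a part in these rises was not tested. Both probe sets of the receptor gene IL1R1 read under the array medians on every SNU449 array. The chemokine gene CXCL2 read 6.96, 7.17 and 6.85 in DAAD2 SNU449, against 5.19, 5.08 and 5.19 in control SNU449 (log2 difference 1.84, SE 0.119, adjusted p = 0.000765). CXCL8, which encodes interleukin 8, read 8.78, 9.06 and 8.66 with DAAD2, against 7.06, 7.07 and 7.18 in the control (1.73, SE 0.1291, adjusted p = 0.00121). In both genes the DAAD2 arrays stood together, apart from the controls. NFKBIZ, a nuclear partner of NF-κB that IL1 induces, read 8.43, 8.04 and 7.63 with DAAD2, against 6.43, 6.37 and 6.29 in the control (1.67, SE 0.1852, adjusted p = 0.00613). Without DAAD2 replicate 2 these differences were 1.75 for CXCL2, 1.62 for CXCL8 and 1.67 for NFKBIZ, all still called. CXCL1 rose by 0.86 (adjusted p = 0.0262), a call that DAAD2 replicate 1 and control replicates 2 and 3 each decided (0.87, adjusted p = 0.11 without the first, 0.80, adjusted p = 0.131 and 0.141 without each of the others). The other called genes were ICAM1, an adhesion molecule gene (0.67, adjusted p = 0.0253), and IL6 (0.80, adjusted p = 0.0406), which were named after their values had been seen. Leaving out DAAD2 replicate 1 gave a count of 3, as did leaving out control replicate 2 or 3, and without DAAD2 replicate 2 it was 7. In each count of 3 the genes still called were CXCL2, CXCL8 and NFKBIZ, so the calls of ICAM1 and IL6 were lost.

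In Hep3B limma called 0 genes of this list, and the median was 0.2637. At an unadjusted p under 0.05, 4 were higher, beside 8191 of 54613 probe sets in either direction over the whole array. CXCL8 had the largest difference, with 6.63, 8.25 and 5.37 with DAAD2, against 4.59, 4.20 and 4.44 in the control (2.34, SE 0.58, adjusted p = 0.127). The DAAD2 arrays lay above the controls and spread widely, with replicate 2 the highest and replicate 3 the lowest. CCL20, a chemokine gene, read 10.55, 10.98 and 9.80 with DAAD2, against 9.48, 9.54 and 9.75 in the control (0.85, adjusted p = 0.181). CRP, a liver acute phase gene named after its value had been seen, differed by -0.20 in Hep3B and by 0.04 in SNU449 and was called in neither.

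**Figure D4:**
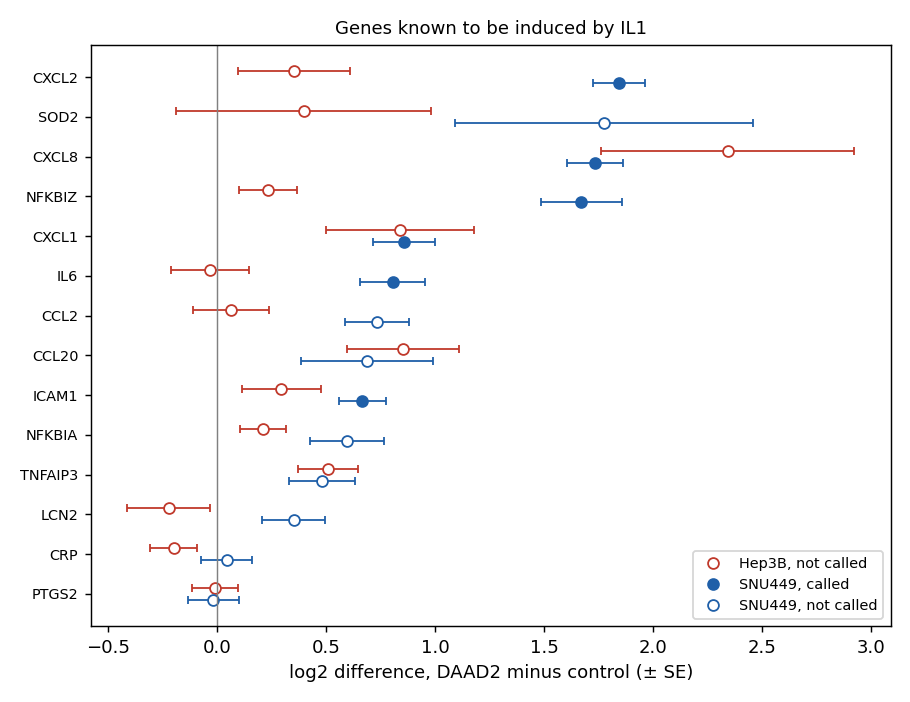
Log2 difference, DAAD2 minus control, with its SE for 14 genes known to be induced by IL1, sorted by the value in SNU449 (blue) with Hep3B in red and filled points for calls. 6 genes are called in SNU449 and 0 in Hep3B, where CXCL8 has the largest value (2.34) and a wide error.

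The genes whose levels followed IL32 and IL1B most closely were found by Pearson's r over the 6 arrays of a line, among 13356 genes in Hep3B and 13389 in SNU449 above the median level. The nearest to IL32 were TANGO6 (0.9961), DAP3 (0.9938) and DUSP11 (0.9917) in Hep3B and PLA2G4C (0.9963), CYSTM1 (0.9944) and SLC27A5 (0.9939) in SNU449. The 3 genes of one line were not those of the other. The nearest to IL1B 205067_at were MAZ (0.9969), TPST1 (0.9948) and TSKU (0.9934) in SNU449, and D21S2088E (0.9831), IGBP1 (0.98) and MB21D2 (0.9731) in Hep3B. The 6 points share 2 treatment groups, and with so many genes and so few arrays values this high are a description only.

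**Figure D5:**
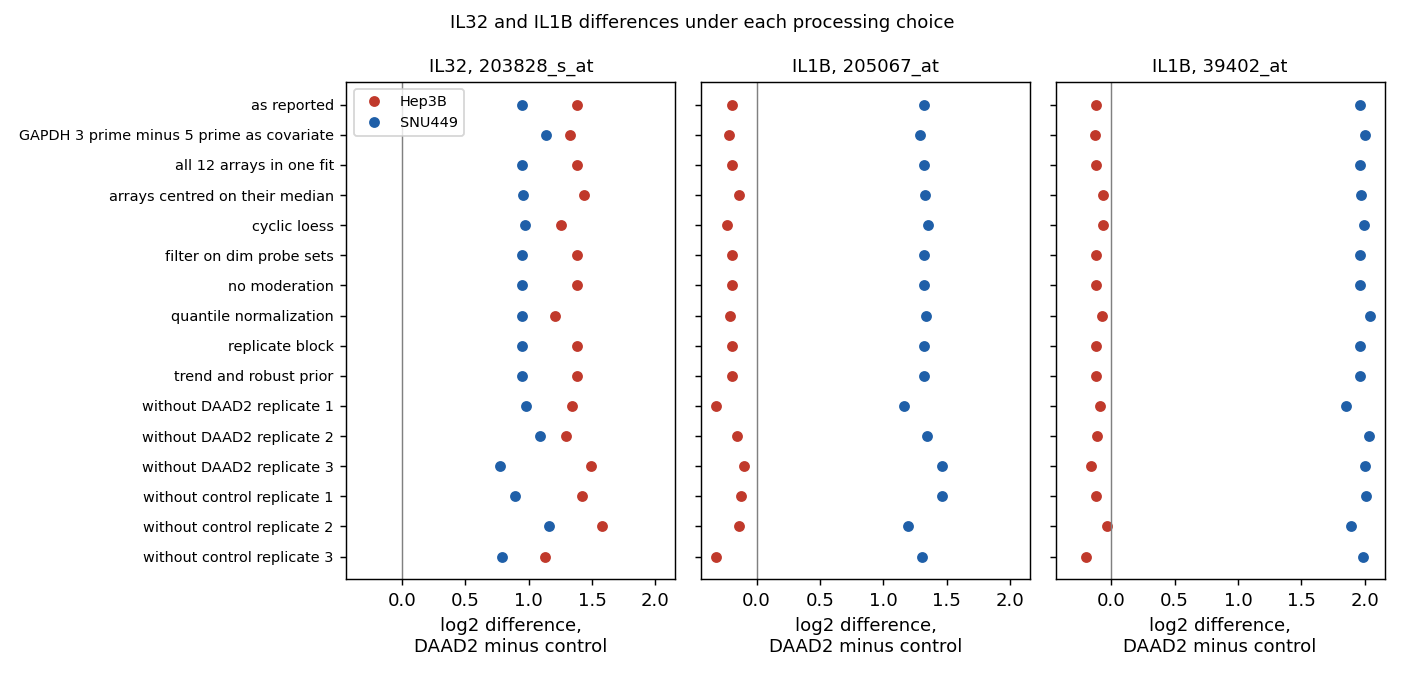
Log2 difference, DAAD2 minus control, of IL32 and of both IL1B probe sets as reported, under each other processing choice and without each array, for Hep3B in red and SNU449 in blue. IL32 stays above 0 in both lines, and IL1B stays above 1 in SNU449 and below 0 in Hep3B.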

How the data were processed

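RNA of 12 samples, 3 in each of 4 groups, was hybridised to Affymetrix U133 Plus 2.0 arrays. The deposited log2 values had been made by the authors with RMA (background correction, quantile normalization and a summary per probe set), while the methods of the study name BRB Array Tools for the normalization, and no RMA version is given in the sources used here. Array medians ran from 3.71 to 3.85, so the arrays were not identically distributed, and RMA compresses differences of dim probe sets. The number of arrays limits the precision. All columns were used (0 left out).

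Groups came from the sample labels. DAAD2 was compared with control within each line, control Hep3B with control SNU449, and the DAAD2 differences of the lines by an interaction term over all 12 arrays, two-sided, with limma 3.58.1 in R 4.3.3 on 54613 probe sets (62 control probe sets left out, no filter on level). Benjamini-Hochberg adjustment covered all of them. The script was tested on simulated data. Symbols came from the platform annotation: 41091 probe sets had 1 symbol, 1801 several and 11721 none, and only the first kind was named. The brightest probe set stood for a gene in lists.

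The members and lists were chosen with earlier results of these data known. All member probe sets are described. From each list, up to 4 called genes with the largest difference are named per line, or 2 where none was called, and the 3 genes most like IL32 and IL1B by Pearson's r. Listed genes with no probe set of a single symbol included IRAK4, ZC3H12A, BIRC3, SAA1, SAA2 and CD68. Alternatives were the replicate number as a block, all arrays in 1 fit, a filter on dim probe sets, median centring, quantile normalization, cyclic loess, a trended robust prior, no moderation, the GAPDH 3′ minus 5′ signal as covariate, other thresholds and leaving out each array.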

Additional observations from a re-analysis of the deposited data

Results flagged for a closer look

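The DAAD2 differences of IL1B were unlike between the lines by a test of the difference itself. For 205067_at the difference in Hep3B (-0.19) minus that in SNU449 (1.32) was -1.51 (limma, adjusted p = 0.0115), and for 39402_at, with -0.12 in Hep3B and 1.96 in SNU449, it was -2.08 (limma, adjusted p = 0.000114). All 3 DAAD2 arrays of SNU449 lay above their controls on both probe sets. The doses of the lines differed, so line and dose cannot be told apart. These differences are those with which the genes had been chosen, so the p-values are no independent evidence.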

How the results depend on the processing

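No source says whether the array numbers pair the samples. Deviations from the group means correlated between same-numbered arrays at -0.2284, -0.2715 and 0.0901 in Hep3B and at -0.0083, -0.0762 and -0.0637 in SNU449. Between unlike-numbered arrays they correlated at -0.1682 to 0.3376 in Hep3B and at -0.0595 to 0.1114 in SNU449. With so few arrays these values do not settle the pairing. With the replicate block, calls over the whole array in SNU449 fell to 204 higher and 58 lower, against 570 and 228 without it, the 2 IL1B calls stayed, and the count for IL1 receptor signalling was 0. That count was also 0 with median centring, with no moderation, with the GAPDH covariate and without each array in turn (0 to 0). The list of IL1-induced genes gave 0 calls in SNU449 with no moderation and 3 to 7 without 1 array, and the list of other receptors 0 to 1, with 1 without DAAD2 replicate 2.

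Over the whole array limma called 0 probe sets in Hep3B, and 123 higher and 31 lower with all 12 arrays in 1 fit, 68 and 9 with median centring, and 271 and 48 with a trended robust prior. In SNU449 the 1-fit setting gave 1163 higher and 687 lower, and no moderation gave 0. Member calls in Hep3B were 1 with all 12 arrays in 1 fit, 1 with a trended robust prior, 2 at an adjusted p under 0.1 and 2 for a fold over 1.5 with an unadjusted p under 0.05. The single one was IL32 and the pairs IL32 and IL18, and since IL32 had been chosen for its Hep3B value these counts are no test of it. In SNU449 the member calls were 3 with all 12 arrays in 1 fit, with a trended robust prior and with the GAPDH covariate. They were 0 with no moderation and 1 to 2 without 1 array. With no moderation 1 was called lower in control Hep3B than in control SNU449 and 1 lower in the interaction. Differences that changed sign had all missed the test. For IL18 the interaction was -0.0158 with cyclic loess and -0.150 to 0.371 without 1 array, for IL1RAP 205227_at in Hep3B the difference was -0.258 to 0.0223 without 1 array, for IL1RAP 210233_at the interaction was 0.0294 with the GAPDH covariate and -0.250 to 0.0262 without 1 array, and for IL1R1 202948_at the interaction was 0.0188 with centring, 0.0155 with the GAPDH covariate and -0.137 to 0.0565 without 1 array. The cause was not tested. By construction, the fits without 1 array had fewer arrays, loess and centring altered the values, and the covariate altered the model. The IL32 and IL1B differences kept their direction under all of these settings. Signals of the 8 dim probe sets were too low to limit changes of their transcripts.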
